A study of Mus musculus with 159 samples.

Results

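Pdgfrb, Rgs5, Abcc9 and Des are the pericyte and mural identity genes followed here, 4 of the 607 genes in a spatial RNA table of mouse liver. They were chosen by name, with earlier results of these data known. The platform, NanoString GeoMx, hybridizes barcoded probes to a fixed tissue section, lights up 1 stained area at a time and counts the barcodes it releases by sequencing. In 51 regions of interest (ROIs) of 4 livers, such areas (segments) were cut by 3 antibody stains: 41 Des+ segments by DESMIN, 45 Marco+IBA+ and 24 Marco-IBA+ macrophage segments by MARCO and IBA1, and 49 Else segments negative for all 3 stains. Each ROI was classed as MarcoHi or MarcoLo. The study's methods describe wild-type C57BL/6 mice of both sexes, 8 weeks old at the start, given CCl4, a liver toxin that causes fibrosis, for 6 weeks, with MARCO+ bone marrow-derived macrophages or saline injected at weeks 3 and 5. The labels call livers 1 and 3 treated CCl4 with fibrosis and livers 2 and 4 control and healthy, while the methods give CCl4 to all 4 mice. No source used here says which livers received cells, so the livers are named by their labels, and each liver, not each segment, counts as 1 replicate.

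Mural cells wrap small blood vessels. In the liver sinusoid that place is held by the hepatic stellate cell, a pericyte that stores vitamin A and becomes the main matrix-producing cell in fibrosis. Pdgfrb encodes a receptor tyrosine kinase through which platelet-derived growth factor recruits and expands pericytes. Rgs5 encodes a regulator of G protein signalling that shortens the signal of activated receptors, and Abcc9 encodes the sulfonylurea receptor subunit of the ATP-sensitive potassium channel, whose pore in mural cells is the Kcnj8 product. Des encodes desmin, an intermediate filament of muscle that stellate cells of rodents also carry, and its protein is the antigen of the stain that cut the Des+ segments.

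In GRCm38.p6 Rgs5 lies at chr1:169655501-169695813, Des at chr1:75360292-75368579 and Abcc9 at chr6:142587862-142702766. Kcnj8 at chr6:142564837-142571614 is the neighbour of Abcc9. The 250 bases upstream of the RefSeq gene starts of Rgs5 (chr1:169655251-169655500, plus strand) and Des (chr1:75360042-75360291, plus strand) are shown because these genes, on 1 chromosome, differed in how they stood towards the DESMIN stain. Capitals mark E-boxes (CANNTG, which reads alike on both strands), the motif of myogenic and other helix-loop-helix factors:
Rgs5: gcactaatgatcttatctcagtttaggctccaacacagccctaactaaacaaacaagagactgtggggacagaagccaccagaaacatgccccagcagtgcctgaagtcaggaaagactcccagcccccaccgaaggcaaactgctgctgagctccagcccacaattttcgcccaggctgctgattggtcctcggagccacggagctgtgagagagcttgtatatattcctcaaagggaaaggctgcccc
Des: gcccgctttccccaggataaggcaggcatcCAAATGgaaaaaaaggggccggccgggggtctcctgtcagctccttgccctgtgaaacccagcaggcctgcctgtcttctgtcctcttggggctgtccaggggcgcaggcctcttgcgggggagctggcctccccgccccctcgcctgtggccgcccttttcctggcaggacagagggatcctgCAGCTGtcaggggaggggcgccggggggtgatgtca
The Des window held 2 E-boxes, starting at -220 and -36 from the gene start, and the Rgs5 window held 0. Of 32851 windows of this length, 66.2% held at least 1 E-box. Neither window held a CArG box, found in 1.47% of windows, or TATAAA, found in 12.4%, on either strand.

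The deposited values are counts scaled so that the 75th percentile over the 607 genes is the same, 26.074, in every segment (Q3 values). Levels between segment types are therefore relative to these genes, which the study had picked as genes of stellate cells. Each of the 96513 values divided by the smallest step of its own segment gave an integer, which returned the counts. They summed over the 607 genes to 1448 to 16715 in Des+, 3106 to 27341 in Marco+IBA+, 1065 to 4457 in Marco-IBA+ and 75571 to 448875 in Else segments. The lowest count was 1 and none was 0, so a gene at 1 cannot be told from an undetected one. The labels' cell types were checked with marker lists. Of the 17 stellate genes in the table, 16 were higher in Des+ than in Else segments and 1 did not pass the test, with 37.6% of all genes higher by the same rule. Since the table was picked for stellate cell genes, this count is not independent evidence of its direction. Marco, the 1 macrophage gene in the table of 12 listed, averaged 540 ± 407 in Marco+IBA+, 31.8 ± 31.5 in Marco-IBA+, 16.7 ± 8.33 in Des+ and 15.7 ± 8.66 in Else segments (SD, n = 4 livers). In Marco+IBA+ segments Marco was 694 and 1043 in the livers labelled treated CCl4 and 179 and 242 in those labelled control. The Marco-IBA+ value was highest in MarcoHi ROIs of liver 3, at 129, against the MARCO-negative label. No gene listed for endothelial cells, hepatocytes or bile duct cells was in the table, so RNA of these cells in the segments could not be checked. Fewer cells of a type and less RNA per cell cannot be told apart in such segments.

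Against the Else segments, Abcc9 and Rgs5 were higher in Des+ segments in every liver and every ROI, Pdgfrb was higher in every liver and most ROIs, and Des RNA itself did not pass the test. Q3 values of Abcc9 in Des+ segments averaged 25.001, 29.6, 25.7 and 20.0 in livers 1 to 4, and 5.54, 4.26, 5.68 and 4.50 in Else segments. The groups did not overlap. Rgs5 averaged 41.5, 35.5, 52.3 and 34.8 in Des+ segments and 10.2, 8.30, 12.2 and 8.99 in Else segments. Here too the lowest Des+ mean lay above the highest Else mean. Pdgfrb averaged 17.1, 17.4, 14.4 and 12.5 in Des+ segments and 7.55, 6.97, 9.40 and 6.58 in Else segments, again without overlap. Des averaged 10.1, 7.99, 7.43 and 5.85 in Des+ segments and 6.02, 5.23, 6.49 and 5.52 in Else segments. For Des the groups overlapped, with the Des+ mean of liver 4 below the Else means of livers 1 and 3. The share of all genes whose liver means did not overlap was not counted, so the lack of overlap describes these members only.

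**Figure D1:**
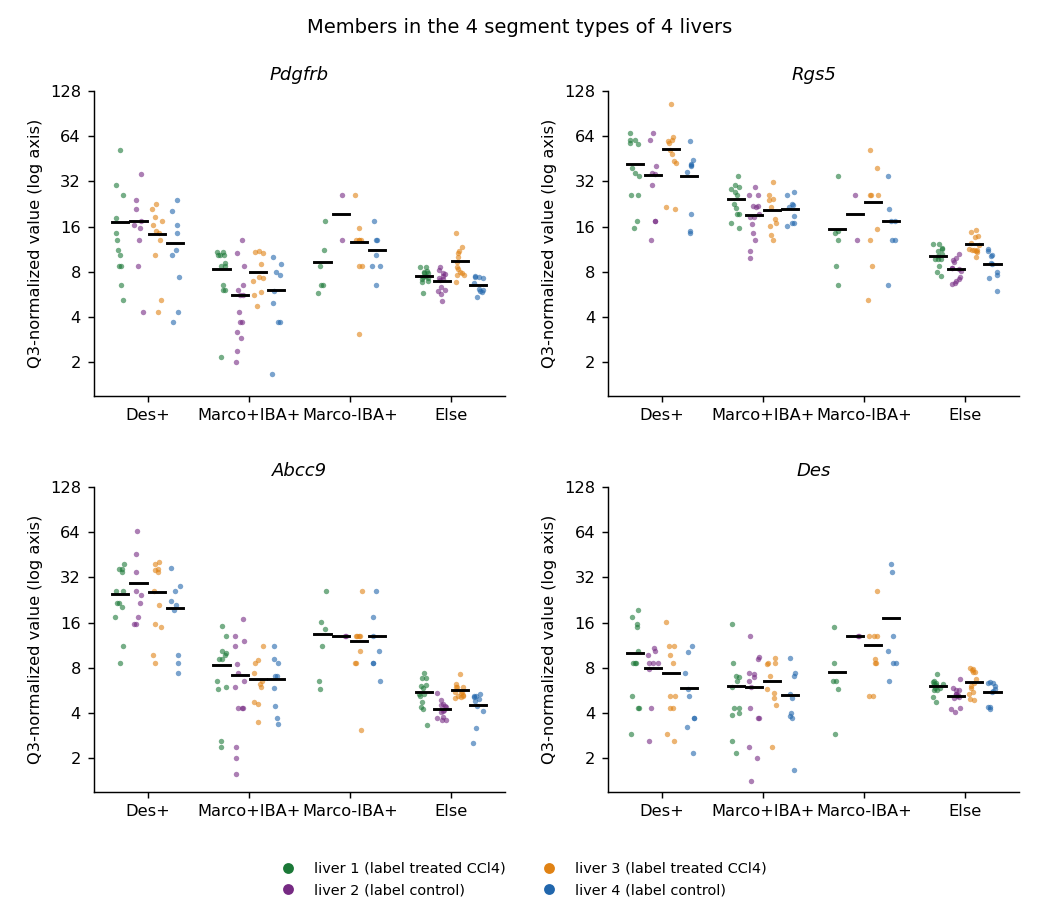
Q3-normalized values of Pdgfrb, Rgs5, Abcc9 and Des (y axis, log scale) in every segment (points, coloured by liver) of the 4 segment types (x axis), with the mean of each liver as a black bar. Abcc9 and Rgs5 stand highest in Des+ segments in all 4 livers, while the Des means of Des+, Marco+IBA+ and Else segments lie between 5.23 and 10.1.

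Between Des+ and Else segments, the log2 difference over 4 livers was 2.12 (SE 0.13) for Abcc9, 1.94 (SE 0.14) for Rgs5 and 0.92 (SE 0.18) for Pdgfrb. The adjusted p (limma with liver as a block, Benjamini-Hochberg over 607 genes) was 1.95e-10, 1.29e-09 and 0.000203. For Des the difference was 0.36 (SE 0.19, 95% interval -0.05 to 0.76, adjusted p = 0.111), with the Des+ mean above the Else mean of the same liver in 4 of 4 livers. So 3 of 4 members rose by this rule, where 37.6% of all genes were higher and 28.3% lower. Because the table was picked for stellate cell genes, this count of members is not independent evidence of its direction either. Among the 607 genes Abcc9 had the 12th, Rgs5 the 18th, Pdgfrb the 105th and Des the 230th highest difference. The call for Des turned with the setting: adjusted p was 0.0386 with CPM (counts scaled to the segment total), 0.0196 with array weights, 0.0356 with edgeR on recovered counts and 0.0145 in segments of 3000 or more counts (chosen after the data were seen). With counts of 1 set to 0, a further alternative chosen after the data were seen, the Des difference was -0.10 (adjusted p = 0.917). No value in Else segments stood at a count of 1, so this setting could only lower the Des+ side.

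**Figure D2:**
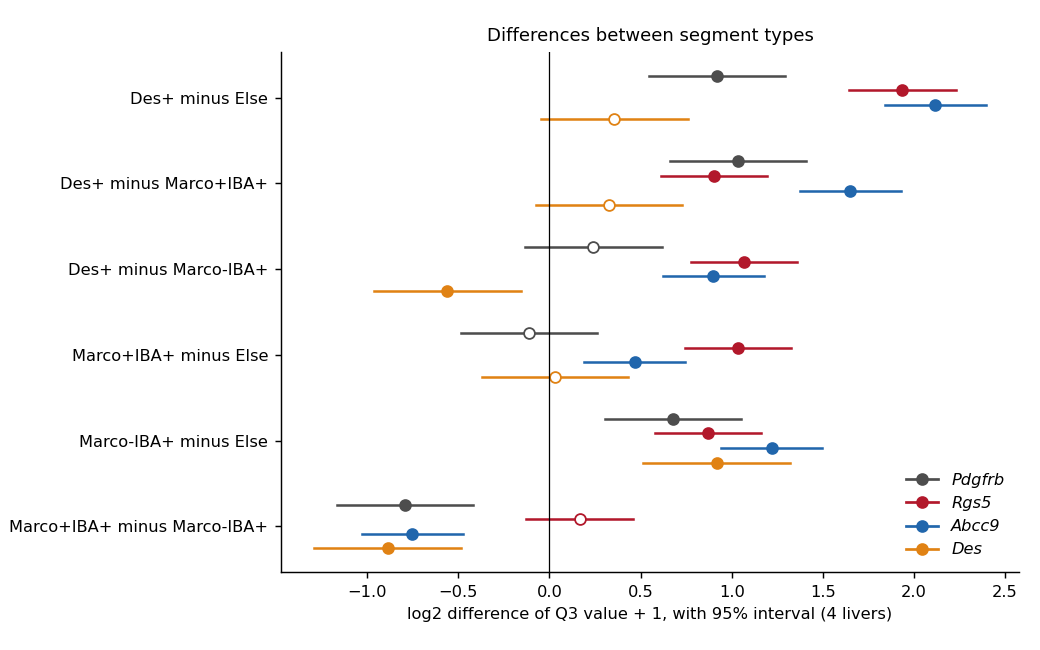
Log2 differences of Q3 value + 1 between segment types (x axis) for the 4 members, with 95% intervals from limma over 4 livers; filled points passed an adjusted p of 0.05 and open points did not. In the Des+ minus Else row, Abcc9, Rgs5 and Pdgfrb stand at 2.12, 1.94 and 0.92, and the interval of Des (0.36) reaches below 0.

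Within single ROIs the order against Else segments was the same. The Des+ segment lay above the Else segment of its own ROI in 41 of 41 ROIs for Abcc9 and for Rgs5, in 34 for Pdgfrb and in 24 for Des. The median gene reached 20 of the 41 ROIs, and 14 genes reached all 41. Against the Marco+IBA+ segment of the same ROI, the Des+ segment was above in 37 of 37 ROIs for Abcc9, 30 for Rgs5, 29 for Pdgfrb and 23 for Des, with 19 for the median gene. Against the Marco-IBA+ segment it was above in 22 of 23 ROIs for Rgs5, 20 for Abcc9, 12 for Pdgfrb and 7 for Des, with 10 for the median gene. The Q3 value of Des was lower in the DESMIN-stained segment in most of these last ROIs (median log2 ratio -0.74). Des stood at a count of 1 in 17 of 24 Marco-IBA+ and 20 of 41 Des+ segments. There 1 count was worth a median of 8.69 and 3.72 Q3 units. Where both segments of a ROI stand at a count of 1, their order follows depth, so these ROIs cannot show how Des RNA stood towards the stain. A Des+ segment with Des at a count of 1 holds only the worth of that count, so its order against Else follows depth too. In Des+ segments of livers 1 to 4, 1 count was worth a median of 4.78, 4.35, 3.72 and 2.61 Q3 units. By liver, Des was above Else in 8 of 12, 7 of 9, 5 of 11 and 4 of 9 ROIs of livers 1 to 4. ROIs of 1 liver are not replicates, so these counts are a description.

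**Figure D3:**
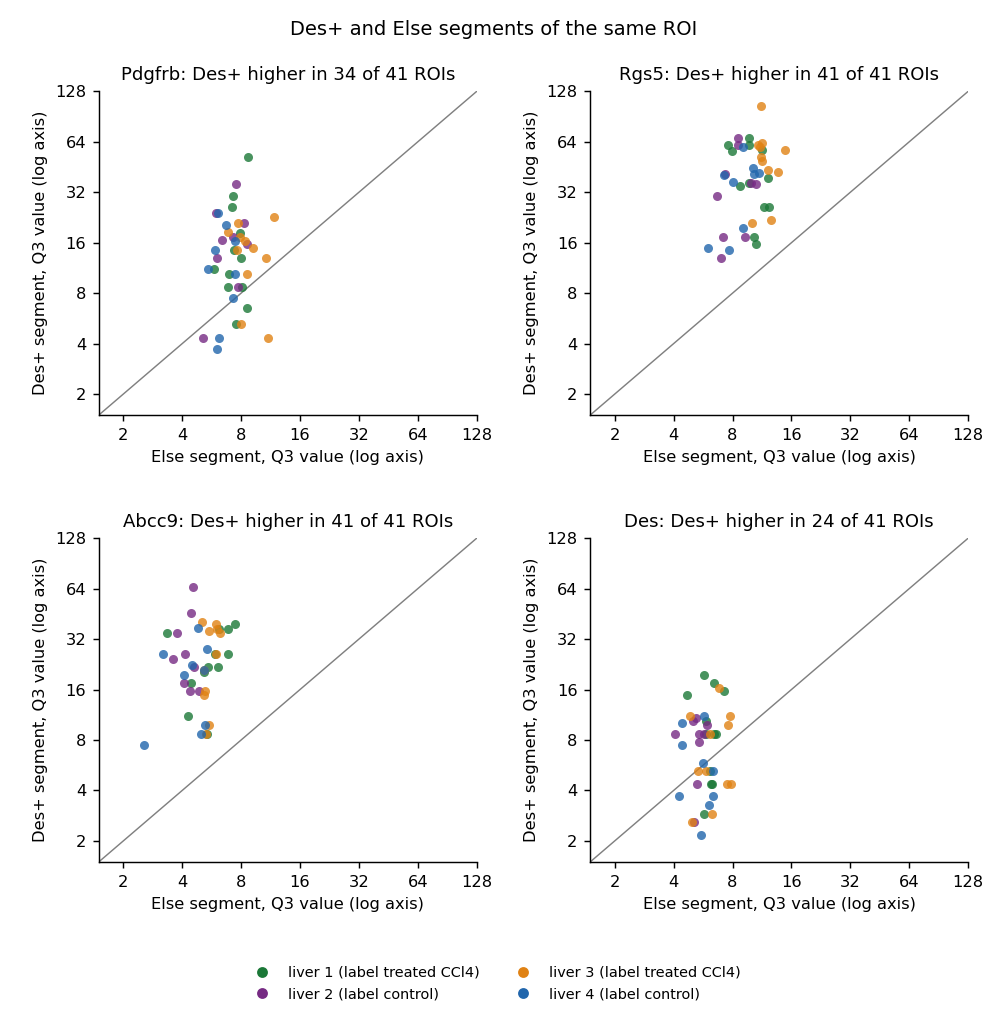
Q3 value of the Des+ segment (y axis) against that of the Else segment (x axis) of the same ROI, both on log scales, for the 4 members, with points coloured by liver and the line of equal values in grey. All 41 ROIs lie above the line for Rgs5 and Abcc9, 34 for Pdgfrb and 24 for Des.

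Des rested on few counts in the Des+ segments. It stood at a count of 1 in 20 of 41 Des+ segments (48.8%), against 8 for Pdgfrb, 1 for Abcc9 and 0 for Rgs5. Its median count there was 2, and 1 count was worth a median of 3.72 Q3 units. In Else segments 1 count was worth 0.0687 units and the Des count ranged from 26 to 164. Summed over all segments of a type, Des took 560 CPM in Des+ segments (95% exact Poisson interval 455 to 683) and 398 in Else segments (386 to 410). These intervals cover counting error and not the spread between livers, and the Des+ sum includes the segments at a count of 1. In Des+ segments the mean Q3 value of Des lay above those of 17 of the 607 genes, whose lowest was 6.53, and in Else segments above those of 55 genes. The level of the negative control probes was not analysed here, so how much of the Des value is background is not known.

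**Figure D4:**
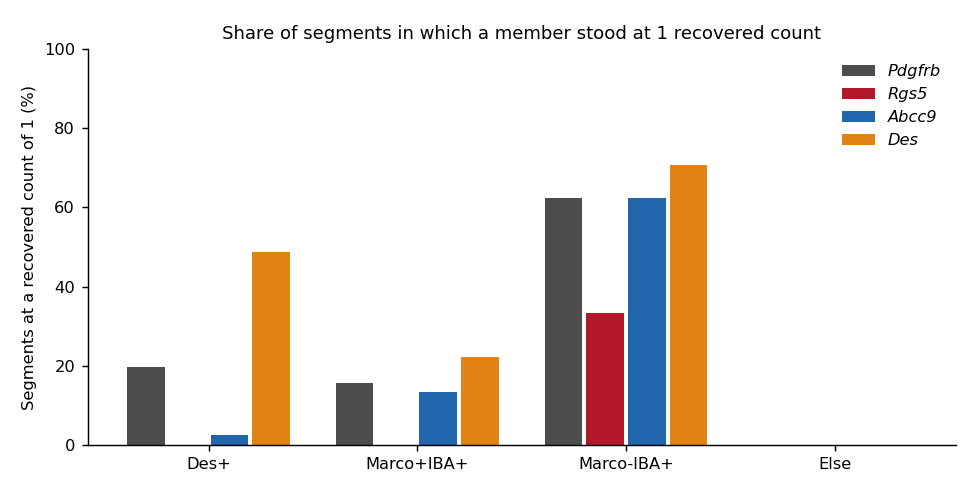
Share of segments (y axis, percent) in which each member stood at a recovered count of 1, by segment type (x axis). Des is at 1 count in 48.8% of Des+ segments and Rgs5 in 0%, and in Marco-IBA+ segments every member is at 1 count in at least 33.3% of segments.

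Against the Marco+IBA+ macrophage segments, Abcc9 was again the member with the largest difference. In Marco+IBA+ segments Abcc9 averaged 8.34, 7.19, 6.79 and 6.74 in livers 1 to 4, and Des+ segments stood 1.65 higher on the log2 scale (SE 0.13, limma adjusted p = 1.1e-08). Pdgfrb averaged 8.35, 5.60, 7.95 and 6.08 in Marco+IBA+ segments and Des+ segments stood 1.03 higher (SE 0.18, adjusted p = 8.21e-05). Rgs5 averaged 24.3, 19.2, 20.6 and 21.0 there, and Des+ segments stood 0.90 higher (SE 0.14, adjusted p = 2.52e-05). For these members the liver means did not overlap between the segment types, and here too the share of all genes without overlap was not counted. Des averaged 6.03, 5.96, 6.53 and 5.28 in Marco+IBA+ segments, with a difference of 0.33 (SE 0.19, 95% interval -0.07 to 0.73, adjusted p = 0.159). This call turned too, with an adjusted p of 0.0149 with array weights, 0.0172 with duplicateCorrelation over single segments, 0.0184 with a mixed model and 0.0288 in segments of 3000 or more counts, and the difference was -0.0028 with counts of 1 set to 0. Again 3 of 4 members were higher, beside 33.6% of all genes higher and 19.1% lower, and the way the table was picked limits this count too.

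Of the 4 members, Rgs5 had the largest difference between Marco+IBA+ and Else segments. Its Marco+IBA+ level of 21.3 ± 2.16 lay between 41.0 ± 8.07 in Des+ and 9.94 ± 1.73 in Else segments (SD, n = 4 livers), and the difference from Else was 1.03 (SE 0.14, limma adjusted p = 6.41e-06) with 4 of 4 livers higher. Abcc9 was 0.47 higher in Marco+IBA+ than in Else segments (SE 0.13, adjusted p = 0.0075), a call lost in MarcoHi ROIs (0.26, adjusted p = 0.367), with segments re-centred on their median and with counts of 1 set to 0. Pdgfrb and Des differed by -0.11 (95% interval -0.49 to 0.26) and 0.03 (-0.37 to 0.43), with adjusted p = 0.662 and 0.921. In this comparison 19.6% of all genes were higher and 21.1% lower. In Marco+IBA+ segments of the 4 livers, the summed Q3 level of the 17 stellate genes was 237 to 290, against 583 to 758 in Des+ and 143 to 188 in Else segments. The part of stellate cell RNA in the Rgs5 value of these segments was not tested.

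Marco-IBA+ segments gave no firm level for any member. Livers 1 to 4 held 6, 2, 9 and 7 of them, 1 count was worth a median of 8.69 Q3 units, and Pdgfrb and Abcc9 stood at a count of 1 in 15 of 24 segments, Des in 17 and Rgs5 in 8. The means were 13.2 ± 4.47 for Pdgfrb, 19.0 ± 3.46 for Rgs5, 12.9 ± 0.538 for Abcc9 and 12.3 ± 4.05 for Des (SD, n = 4 livers). Against these, Des+ segments were higher in Rgs5 by 1.07 (SE 0.14, limma adjusted p = 6.67e-06) and in Abcc9 by 0.90 (SE 0.13, adjusted p = 2.58e-05, and 0.18 with adjusted p = 0.598 in MarcoHi ROIs). The other members differed by 0.24 for Pdgfrb (SE 0.18, adjusted p = 0.272) and by -0.56 for Des (SE 0.19, adjusted p = 0.0232). In livers 1 to 4 the Des difference was 0.37, -0.64, -0.55 and -1.42 (SD 0.73), so liver 1 ran the opposite way. The SE does not measure this spread alone, since 1 fit shares 1 spread over all 4 segment types. With counts of 1 set to 0, Des turned to 0.62 (adjusted p = 0.33) and Pdgfrb passed at 1.02 (adjusted p = 0.0125). By limma 2 members were higher, beside 17.3% of all genes, and 1 lower, beside 29.2%. All 4 members were higher in Marco-IBA+ than in Else segments, by 0.68 for Pdgfrb, 0.87 for Rgs5, 1.22 for Abcc9 and 0.92 for Des (adjusted p from 2.58e-07 to 0.00229), beside 52.4% of all genes higher and 21.6% lower. With counts of 1 set to 0, which against Else could only lower the Marco-IBA+ side, these turned negative for Pdgfrb, Abcc9 and Des. None of the 3 passed. From Marco-IBA+ to Marco+IBA+ segments Pdgfrb changed by -0.79, Abcc9 by -0.75 and Des by -0.89 (adjusted p from 0.000304 to 0.00188), and Rgs5 by 0.17 (adjusted p = 0.338), beside 38.1% of genes lower and 8.07% higher, and the first 3 calls were likewise lost with counts of 1 set to 0.

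Ordered by level, Rgs5 and Abcc9 were highest in Des+ and lowest in Else segments in limma. Between these, the macrophage segment types differed for Abcc9 in limma but not beyond the error for Rgs5, and with counts of 1 set to 0 the Abcc9 difference was 0.71 in the opposite direction (adjusted p = 0.309) and Marco-IBA+ segments lay 0.30 under Else (log2 difference -0.30, adjusted p = 0.648). For Pdgfrb, the neighbours Des+ and Marco-IBA+ did not differ beyond their error, nor did Else and Marco+IBA+. For Des, Des+, Marco+IBA+ and Else segments (7.83 ± 1.74, 5.95 ± 0.513 and 5.82 ± 0.556, SD, n = 4 livers) did not differ beyond their error in limma.

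Genes of the same roles were followed as lists, chosen with earlier results of these data known. Since the table was picked for stellate cell genes, counts of higher genes in these lists are not independent evidence of their direction. Of 21 listed pericyte and mural genes 7 were in the table, 3 of them members, and 7 of 7 were higher in Des+ than in Else segments, beside 37.6% of all genes, with a median log2 difference of 1.23 beside 0.08 over all genes. Against Marco-IBA+ segments 2 of the 7 were higher, both of them members, beside 17.3% of all genes higher and 29.2% lower. The other 5 did not pass, with Kcnj8 at -0.07 (adjusted p = 0.727). Against Else segments Kcnj8, the channel pore, had the smallest difference of the 7, at 0.84 (limma adjusted p = 0.000151). It averaged 9.61 ± 1.86 in Des+ segments (SD, n = 4 livers). Of the 4 PDGF signalling genes, the receptors Pdgfrb (0.92) and Pdgfra (0.59, adjusted p = 0.0131) were higher than in Else segments. Pik3r1, a regulatory subunit of PI3 kinase (-0.35, adjusted p = 0.0256), and Lrp1, an endocytic co-receptor (-0.66, adjusted p = 0.00145), were lower. Among intermediate filament genes, Vim, the vimentin of mesenchymal cells, was higher than in Else segments by 1.58 (adjusted p = 2.18e-07). Lmna, a nuclear lamin, was lower by 0.53 (log2 difference -0.53, adjusted p = 0.00168), and Des did not pass. Of 5 smooth muscle genes 4 were higher than in Else segments, beside 37.6% of all genes. Tagln, an actin-binding protein of smooth muscle, stood at 1.605 (adjusted p = 1.44e-06). Myl9, a myosin light chain, stood at 0.72 (adjusted p = 0.00256) and Smtn at 0.61 (adjusted p = 0.00267). The kinase Mylk stood at 0.39 (adjusted p = 0.0488). Des was the fifth and did not pass. Against Marco-IBA+ segments 2 of the 5 were higher and 1, Des, was lower, beside 17.3% of all genes higher and 29.2% lower.

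The stellate list, with 16 of 17 higher in Des+ than in Else segments, had a median difference of 1.44. Dcn, the matrix proteoglycan decorin, led it at 3.27 (limma adjusted p = 3.67e-11), followed by Ecm1 at 2.78 (adjusted p = 1.11e-09). Rspo3, a WNT amplifier, was the gene that did not pass (-0.14, adjusted p = 0.537). Eln, elastin, the 1 gene of 9 listed for portal fibroblasts in the table, was higher by 0.72 (adjusted p = 0.00892), and Marco differed by 0.08 (adjusted p = 0.774). No other Rgs gene was in the table.

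The profiles most like each member were read over the 16 means of liver and segment type. Points of 1 segment type share depth and points of 1 liver share the section, so the correlations are a description. Pdgfrb ran most like Tnxb, Mxra8, Ntn1, Clca3a1 and Rbms3 (Pearson r 0.94 to 0.95), and Rgs5 most like Colec10, Sparc, Dcn, Col14a1 and Bgn (0.94 to 0.97). Abcc9 ran most like Col3a1, Col5a1, Col1a1, Hand2 and Gdf2 (0.96 to 0.98). Des stood with other genes, Selenom, Bok, Dkk3, Ddr2 and Cryab (0.88 to 0.95). Its profile rests partly on the floor, with a count of 1 in 17 of 24 Marco-IBA+ and 20 of 41 Des+ segments. Between members, r was 0.87 for Rgs5 and Abcc9, 0.84 for Pdgfrb and Abcc9, 0.64 for Pdgfrb and Rgs5, 0.66 for Pdgfrb and Des, 0.48 for Abcc9 and Des and 0.26 for Rgs5 and Des. Over the 41 Des+ segments alone the 6 pairs of members had r from -0.09 to 0.38 in sparse counts.

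Within Des+ segments, the ROI class asks whether cells near many MARCO+ macrophages differ from those near few. Abcc9 was the 1 member that passed, and it was lower in MarcoHi ROIs. It averaged 19.0, 21.9, 18.7 and 15.4 in the MarcoHi ROIs of livers 1 to 4 and 31.0, 45.1, 38.01 and 29.2 in their MarcoLo ROIs. The log2 difference was -0.89 (SE 0.20, limma adjusted p = 0.00596), between -1.01 and -0.68 in single livers (SD 0.15). By the same rule 3.79% of all genes were lower, of 4.45% that passed in either direction. With 2 residual degrees of freedom per gene, the fit borrowed most of its spread across genes. The SE is therefore not the spread of Abcc9 between livers. Without liver 2, 3 or 4 the adjusted p was 0.222, 0.0905 or 0.197, and it was 0.176 with DESeq2, while the difference stayed between -0.97 and -0.81 without any 1 liver. The livers labelled treated CCl4 gave -0.83 (adjusted p = 0.0935) and those labelled control -0.94 (adjusted p = 0.221), and the difference between them was 0.11 (adjusted p = 0.994).

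**Figure D5:**
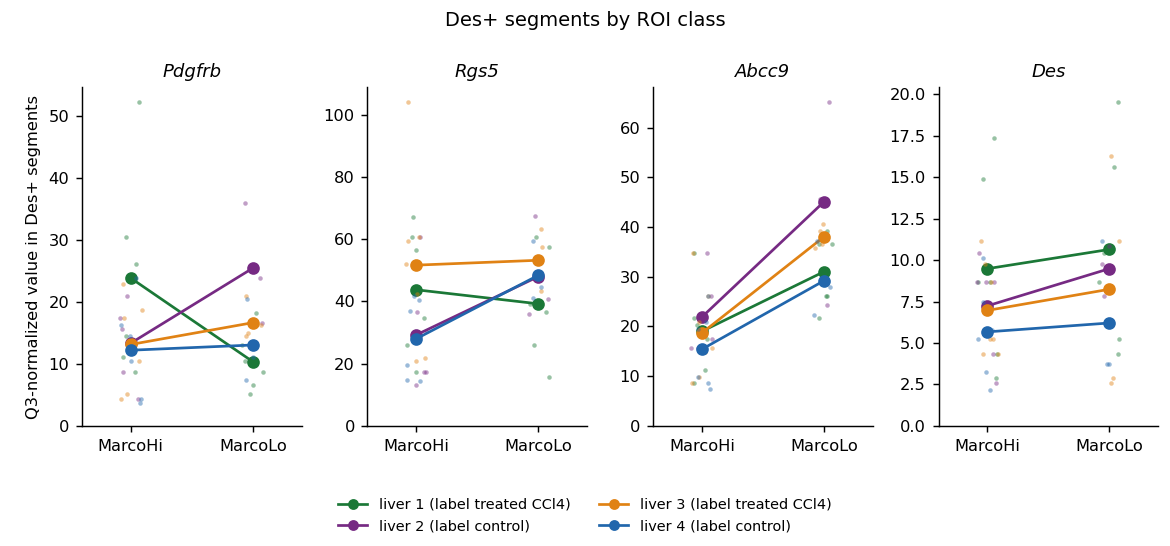
Q3-normalized values (y axis, from 0) of the 4 members in Des+ segments of MarcoHi and MarcoLo ROIs, with small points for segments and large joined points for the mean of each liver. All 4 Abcc9 lines rise from MarcoHi (15.4 to 21.9) to MarcoLo (29.2 to 45.1), while those of Pdgfrb and Rgs5 run in both directions.

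The other members did not pass in this comparison. Des averaged 9.48, 7.24, 6.97 and 5.67 in MarcoHi and 10.6, 9.49, 8.24 and 6.21 in MarcoLo ROIs, lower in 4 of 4 livers by small steps (-0.21, SE 0.20, limma adjusted p = 0.661). Rgs5 averaged 43.8, 29.3, 51.7 and 28.0 in MarcoHi and 39.3, 48.0, 53.3 and 48.4 in MarcoLo ROIs (-0.34, SE 0.20, adjusted p = 0.407). Livers 2 and 4 stood lower in MarcoHi ROIs, liver 1 higher, and the means of liver 3 lay close together. Pdgfrb averaged 23.8, 13.3, 13.1 and 12.2 in MarcoHi and 10.4, 25.4, 16.6 and 13.0 in MarcoLo ROIs (-0.04, SE 0.22, adjusted p = 0.958). Liver 1 ran in the opposite direction to the other 3. The SE of these members also borrows its spread across genes. Between livers the SD of the difference was 0.10 for Des, 0.46 for Rgs5 and 0.85 for Pdgfrb.

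Other values moved with the Abcc9 difference. The summed level of the 17 stellate genes in Des+ segments was 477 to 685 in the MarcoHi and 794 to 961 in the MarcoLo ROIs of the 4 livers. By gene, 3 of the 17 were lower in MarcoHi ROIs and 14 did not pass, beside 3.79% of all genes lower. Dcn alone averaged 139 ± 40.9 in MarcoHi and 286 ± 28.0 in MarcoLo ROIs (SD, n = 4 livers). Col3a1, a collagen and the gene most like Abcc9 in profile, was lower in MarcoHi ROIs by 1.17 (log2 difference -1.17, adjusted p = 0.000856). Kcnj8, the partner subunit, averaged 7.84 ± 1.61 in MarcoHi and 12.5 ± 3.06 in MarcoLo ROIs (SD, n = 4 livers), a difference of -0.59 that did not pass (adjusted p = 0.0933). Marco was higher in Des+ segments of MarcoHi ROIs, at 8.84 to 34.1 against 4.71 to 11.8 (log2 difference 1.12, adjusted p = 0.000856), and so were the smooth muscle genes Tagln (0.86, adjusted p = 0.0199) and Myl9 (0.85, adjusted p = 0.0073). The other 3 smooth muscle genes in the table did not pass and stood lower, Mylk at -0.24, Des at -0.21 and Smtn at -0.09. The median recovered count was 3089 per Des+ segment in MarcoHi and 4602.5 in MarcoLo ROIs, and in segments of 3000 or more counts the Abcc9 difference was -0.86 (adjusted p = 0.1). The part of stellate cell content, macrophage RNA, smooth muscle RNA and depth in the result was not tested.

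Outside the Des+ segments, 1 member passed between the classes in Else segments and none in macrophage segments. In Else segments Rgs5 was lower in MarcoHi ROIs in 4 of 4 livers by 0.15 to 0.22, with a log2 difference of -0.18 (SE 0.04, limma adjusted p = 0.0293) beside 3.29% of genes lower and 5.11% called in either direction, but the call was lost without any 1 of the livers (adjusted p from 0.0587 to 0.179), without the liver block (adjusted p = 0.998) and with DESeq2 (adjusted p = 0.583). The other members did not pass there (adjusted p from 0.253 to 0.943). In Marco+IBA+ segments 0 of 4 members passed, beside 0.494% of genes, although Rgs5 (-0.42, adjusted p = 0.365) and Des (-0.46, adjusted p = 0.365) were lower in MarcoHi ROIs of 4 of 4 livers and had an unadjusted p of 0.014 and 0.0119. Under edgeR the same Rgs5 difference passed (-0.46, adjusted p = 0.0347), and with DESeq2 it did not (adjusted p = 0.995). In Marco-IBA+ segments, which had both classes in 3 livers, 0 of 4 members passed (adjusted p from 0.379 to 0.987). There Abcc9 (0.58) and Des (0.73, unadjusted p = 0.0453) were higher in MarcoHi ROIs of 3 of 3 livers, the opposite direction to Des+ segments, and Rgs5 differed by -0.43 and Pdgfrb by 0.01. In these segments 0 of 607 genes passed, against 78 genes at an unadjusted p under 0.05.

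Between the livers labelled treated CCl4 and those labelled control, 0 of 4 members passed in any segment type. With 2 livers against 2 and 2 residual degrees of freedom per gene, the fit borrowed most of its spread across genes. In Des+ segments Rgs5 stood at 41.5 and 52.3 in the livers labelled treated CCl4 and at 35.5 and 34.8 in those labelled control (log2 difference 0.40, SE 0.24, limma adjusted p = 0.827). Des differed by 0.30 (SE 0.25, adjusted p = 0.88), Pdgfrb by 0.09 (SE 0.25, adjusted p = 0.984) and Abcc9 by 0.06 (SE 0.25, adjusted p = 0.984), beside 0.165% of genes called. In Else segments all 4 members were higher under the treated CCl4 label, from 0.19 for Des to 0.34 for Rgs5 (adjusted p from 0.161 to 0.198). There 0 of 607 genes passed in limma, with 26.2% at an unadjusted p under 0.05 and a median log2 difference of 0.11 over all genes, while DESeq2 called 114 genes, among them Abcc9 (0.25, adjusted p = 0.0354). In Marco+IBA+ segments the members differed by 0.10 to 0.42 (adjusted p from 0.27 to 0.853), beside 0.329% of genes called, and in Marco-IBA+ segments by -0.64 to 0.04 (adjusted p from 0.92 to 0.999), beside 0% called and 24 genes at an unadjusted p under 0.05.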

How the data were processed

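GeoMx segments of 4 livers were read with the mouse whole transcriptome panel. Per the labels and the study's methods, the authors converted reads with bcl2fastq 2.20.0.422 and the GeoMx NGS Pipeline, filtered segments and genes, and deposited a Q3-normalized signal for 607 genes picked with single-cell data of stellate cells, which favours genes of that cell type. Counts were recovered from the deposited values as whole multiples of each segment's step (relative tolerance 1e-06). No per-sample column was left unused. Negative probes and raw reads were not analysed here.

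Q3 values were averaged over the segments of a liver and segment type (or ROI class), and log2(value + 1) was fitted with limma 3.58.1 in R 4.3.3 with liver as a block, since the segment types and classes were cut from the same livers, and without it between labels. P-values were Benjamini-Hochberg adjusted over 607 genes, with a threshold of 0.05. The study's methods give 4 analysed mice, and that livers 1 to 4 are these mice rests on the labels. Alternatives were other pseudocounts, means and medians, re-centring, CPM, array weights, edgeR 4.0.16 and DESeq2 1.42.0 on recovered counts, duplicateCorrelation, a mixed model (lmerTest 3.1.3), single ROI classes, livers left out and a filter at a mean count of 5, which left 285 genes and dropped Pdgfrb and Des. Intervals on counts are exact Poisson intervals at 95% and cover counting error only. For 1 ROI of liver 4 (3 segments) the class came from the sample titles.

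The members and gene lists were chosen with earlier results of these data known. Other genes were named by rule: the 5 genes most correlated with each member, and of each list the 2 highest and 2 lowest differences between Des+ and Else segments, or all of 5 or fewer. A gene that this rule names is not reported here. Upstream sequences came from RefSeq (GRCm38.p6) for 2 members.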

Additional observations from a re-analysis of the deposited data

Results flagged for a closer look

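In 148 groups of 4 to 10 values, 6 members' values stood far from the rest of their group, where chance gives about 5% of groups. The log2 difference of Abcc9 between Des+ and Else segments was 2.54 in liver 2 and 1.93 to 2.00 in the other livers. For Rgs5 between Marco+IBA+ and Else segments it was 0.71 in liver 3 and 1.12 to 1.17 in the others. A single Else segment of a MarcoLo ROI of liver 3 held Pdgfrb at a Q3 value of 14.5, with 7.59 to 10.1 in the other segments of that group. Among the 5 Marco-IBA+ segments of MarcoHi ROIs in liver 3, 1 segment held Pdgfrb at 8.69 and 1 held Abcc9 at 8.69, with 13.0 in the others, and 1 held Des at 26.07, with 8.69 to 13.0 in the others. In these 5 segments 1 count was worth 8.69 or 13.0 Q3 units, and all 5 values of Pdgfrb and of Abcc9 were a count of 1, with both values of 8.69 in the same segment.

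The Pdgfrb difference between MarcoHi and MarcoLo ROIs in Else segments was -0.11 and -0.04 in the livers labelled treated CCl4 and 0.08 and 0.03 in those labelled control, so that all livers of a label ran one way. The difference between the labels was -0.13 and did not pass when tested (limma adjusted p = 0.987).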

How the results depend on the processing

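Of 60 differences of the members, 24 kept their direction and their side of the threshold under every alternative tried, and of 1171 single alternatives 1047 did. Low counts are a limit of these data: a count of 1 could not be told from an undetected gene, 44.1% of all values in Marco-IBA+ segments stood at that floor, and Des in Des+ segments rested on a median of 2 counts. Values below are log2 differences, and for those that changed the cause was not tested.

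Without the liver as replicate block, which pairs segments of the same liver, the Rgs5 difference between ROI classes in Else segments stayed at -0.18 but lost its call (adjusted p = 0.998), and no other call of a member changed. With CPM, Des between Des+ and Else segments passed at 0.43, Pdgfrb between ROI classes of Marco-IBA+ segments turned to -0.17 and Abcc9 between labels there to 0.066. Array weights let Des pass at 0.33 against Else and 0.32 against Marco+IBA+ segments. With edgeR, Des passed against Else (0.34), Pdgfrb passed between Des+ and Marco-IBA+ segments (0.71) and Rgs5 between Marco+IBA+ and Marco-IBA+ segments (0.57). It lost the calls of Des between Des+ and Marco-IBA+ segments (-0.21), of Pdgfrb (0.23) and Des (0.55) between Marco-IBA+ and Else, and of Pdgfrb (-0.26), Abcc9 (-0.45) and Des (-0.44) between the macrophage types. Between ROI classes edgeR let Rgs5 (-0.46) and Abcc9 (-0.66) pass in Marco+IBA+ segments, and turned the Abcc9 difference of labels in Des+ segments to -0.28, Pdgfrb in Marco-IBA+ segments to -0.27, Pdgfrb and Des in Else segments to 0.040 and 0.013, and Abcc9 between labels in Marco-IBA+ segments to 0.14. DESeq2 gave 0.64 for Pdgfrb between Des+ and Marco-IBA+ segments, which passed, and lost the calls of Pdgfrb between Marco-IBA+ and Else (0.29) and of Pdgfrb (-0.34), Abcc9 (-0.54) and Des (-0.52) between the macrophage types. Between ROI classes it lost Abcc9 in Des+ (-0.86) and Rgs5 in Else segments (-0.19), and turned the Abcc9 difference of labels to -0.29, Pdgfrb in Marco-IBA+ segments to -0.25, and Pdgfrb and Des in Else segments to 0.041 and 0.016. Between labels it gave 0.13 for Abcc9 in Marco-IBA+ segments and 0.25, which passed, in Else segments.

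With single segments and duplicateCorrelation, and with a linear mixed model, Des passed against Marco+IBA+ segments (0.32 in both), Rgs5 passed between the macrophage types (0.32 and 0.34) and Des between Marco+IBA+ and Else turned to -0.083 and -0.084. Between ROI classes Abcc9 passed in the Des+ segments of the treated CCl4 label (-0.92 and -0.93), Rgs5 passed in Marco+IBA+ segments (-0.40 and -0.41) and Pdgfrb there turned to -0.0066 and -0.0055. The first of these fits also let Abcc9 in Marco+IBA+ (-0.58) and Des in Marco-IBA+ segments (0.92) pass between classes and Rgs5 in Else segments between labels (0.35), and the mixed model Abcc9 in Else segments between labels (0.30). Medians over segments gave -0.44 for Des between Des+ and Marco-IBA+ segments (call lost), -0.031 for Des between Marco+IBA+ and Else, 0.054 for Pdgfrb between ROI classes and -0.017 between labels in Des+ segments, and 0.14 for Abcc9 between labels in Marco-IBA+ segments. Means of log2 values turned Des between Marco+IBA+ and Else to -0.079 and Rgs5 between labels in Marco-IBA+ segments to -0.085. Re-centring on the median of each segment lost Abcc9 between Marco+IBA+ and Else (0.31), turned Des there to -0.12, the Abcc9 difference of labels to -0.25, Pdgfrb between classes to -0.16 in Marco-IBA+ and 0.0046 in Else segments, Des in Else segments to 0.0070 and Rgs5 between labels in Marco-IBA+ segments to -0.042. Without the ROI that has no class in its library name, Pdgfrb between classes of Marco-IBA+ segments was -0.028.

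In MarcoHi ROIs alone, calls were lost for Abcc9 between Des+ and Marco-IBA+ (0.18) and between Marco+IBA+ and Else (0.26), for Pdgfrb (0.37) and Rgs5 (0.57) between Marco-IBA+ and Else and for Pdgfrb between the macrophage types (-0.49), and Des between Marco+IBA+ and Else was -0.16. In MarcoLo ROIs alone, calls were lost for Des between Des+ and Marco-IBA+ (-0.073) and for Abcc9 (-0.41) and Des (-0.26) between the macrophage types. The next settings were chosen after seeing the data. No value in Else segments stood at a count of 1, so setting such counts to 0 could only lower the segments compared with Else. With counts of 1 set to 0, Des was -0.10 against Else and -0.0028 against Marco+IBA+ segments, Pdgfrb passed at 1.02 and Des turned to 0.62 between Des+ and Marco-IBA+, and between Marco+IBA+ and Else Abcc9 lost its call (0.41) and Des was -0.10. Between Marco-IBA+ and Else this gave -0.20 for Pdgfrb, -0.30 for Abcc9 and -0.72 for Des, and between the macrophage types -0.0037, 0.71 and 0.62. Between ROI classes it gave -0.92 for Abcc9 in Des+ segments (call lost) and -2.40, -0.39 and -0.048 for Pdgfrb, Abcc9 and Des in Marco-IBA+ segments, and between labels there 1.42 for Abcc9 and 0.39 for Des. In segments of 3000 or more counts, Des passed against Else (0.30) and Marco+IBA+ (0.27), Abcc9 between ROI classes of Des+ segments lost its call (-0.86) and its difference of labels was -0.033. Above the median depth of Des+ segments, Pdgfrb was higher in Des+ in 17 of 18 ROIs against Marco+IBA+ and 19 of 20 against Else, and Rgs5 in 14 of 14 against Marco-IBA+. In the same ROIs Rgs5 was higher in 14 of 18 against Marco+IBA+, and Des in 11 of 18 against Marco+IBA+, 11 of 20 against Else and 5 of 14 against Marco-IBA+.

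Leaving out 1 liver in turn, the class difference in Des+ segments ranged from -0.97 to -0.81 for Abcc9, whose call was lost without liver 2, 3 or 4, from -0.40 to 0.32 for Pdgfrb and from -0.043 to 0.27 for the Abcc9 difference of labels. It ranged from -0.22 to 0.41 for Pdgfrb in Marco+IBA+ segments, from -0.12 to 0.079 for Pdgfrb in Marco-IBA+ segments, and in Else segments from -0.19 to -0.17 for Rgs5, whose call was lost without any of the 4, from -0.025 to 0.0070 for Pdgfrb and from -0.015 to 0.0027 for Des. Des between Des+ and Marco-IBA+ ranged from -0.87 to -0.27, its call lost without liver 2, 3 or 4, and between Marco+IBA+ and Else from -0.015 to 0.056. Between labels the range was -0.14 to 0.31 for Pdgfrb and -0.22 to 0.33 for Abcc9 in Des+, -0.031 to 0.23 for Abcc9 in Marco+IBA+, and -0.25 to 0.33 for Rgs5 and -0.094 to 0.039 for Abcc9 in Marco-IBA+ segments.

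The number of all genes called ranged over the alternatives from 160 to 467 (400 in limma) between Des+ and Else, 99 to 436 (320) between Des+ and Marco+IBA+, 120 to 325 (282) between Des+ and Marco-IBA+, 109 to 389 (247) between Marco+IBA+ and Else, 224 to 469 (449) between Marco-IBA+ and Else and 60 to 352 (280) between the macrophage types. Between ROI classes it ranged from 0 to 43 (27) in Des+, where it was 0 without liver 2 or 4, from 0 to 31 (3) in Marco+IBA+, 0 to 72 (0) in Marco-IBA+ and 0 to 78 (31) in Else segments. Between labels it ranged from 0 to 2 (1), 0 to 39 (2), 0 to 1 (0) and 0 to 114 (0) in the same order.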
